A study of Mus musculus with 6 samples.

Results

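The Zbtb genes encode transcription factors with a BTB domain and C2H2 zinc fingers, and 37 of them were measured among the 22180 genes tested in lung CD4 T cells. They were taken as every gene whose symbol is Zbtb followed by a number, each read from its brightest probe set with a single gene symbol, as judged by the mean over all 6 arrays. The annotation tables hold 42 such symbols. Of these, 4 (Zbtb11, Zbtb26, Zbtb8os and the long noncoding RNA Zbtb11os1) are named only on probe sets shared with another gene. No probe set is named for Zbtb9, so these 5 are not among the 37. Zbtb8os and Zbtb11os1 are opposite-strand neighbours of Zbtb genes and not members of the factor family.

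Wild-type mice were sensitised and challenged with house dust mites (HDM), a source of airborne allergen, or given PBS, the saline control. Lungs were digested and CD45+ CD4+ cells without CD11b and F4/80, surface proteins of myeloid cells, were sorted by flow cytometry. RNA of 3 HDM and 3 PBS samples was hybridised to Affymetrix Mouse Gene 2.0 ST arrays, 1 array a sample. The titles call the samples biological replicates. The sources used here do not give strain, age, dose or days, nor how many mice each sample holds. The p-values below therefore speak only of the spread among these arrays, part of which may be technical.

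In BTB zinc finger proteins the zinc fingers bind DNA, while the BTB domain pairs the proteins with each other and recruits corepressor complexes, so most members are known as repressors. In T cells several decide lineage: ThPOK, the product of Zbtb7b, commits thymocytes to the CD4 lineage, and PLZF, the product of Zbtb16, gives innate-like T cells their effector programme. Others act in DNA methylation, telomere maintenance or cell cycle control in many cell types.

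The array medians lay between 6.57 and 6.64 on the log2 scale. Of 11 marker genes of CD4 T cells 9 were measured, and their mean log2 signal was 11.5 to 11.6 in the PBS arrays and 11.6 to 11.7 in the HDM arrays. None of the 9 passed the test for HDM against PBS (0 with limma, 3 at an unadjusted p below 0.05, 3 higher with the replicate number as a block). Zbtb7b is itself 1 of the 9 and 1 of the 3 in both counts, beside Cd5 and Cd3g. The sort for CD45 should remove epithelium, endothelium and stroma, and the exclusion of CD11b and F4/80 most macrophages, monocytes and neutrophils. Of their genes, 1 of 9 macrophage genes rose, Chil3 (log2 difference 2.11, from a mean of 9.15 in PBS to 11.25 in HDM). Of 10 genes of epithelium, endothelium and stroma 1 fell, Pecam1 (−0.51), which T cells also express. With the block 2 were higher, Chil3 and Csf1r (0.52), and 4 lower, Pecam1, Cdh5 (−0.90), Pdgfra (−0.76) and Sftpc (−0.40). The mean signal of the 9 genes was 7.81 to 7.89 in PBS and 8.08 to 8.44 in HDM. That of the 10 genes was 8.03 to 8.80 and 7.85 to 8.53, with gene means from 5.79 (Epcam) to 11.7 (Scgb1a1). RNA of such cells can therefore not be taken as absent. Chil3 lost its call without PBS replicate 1, PBS replicate 2, HDM replicate 1 or HDM replicate 2, and so did Pecam1 (adjusted p of up to 0.110 and 0.0961). None of 11 genes of B and plasma cells, 8 of neutrophils and monocytes, 6 of mast cells, basophils or innate lymphoid cells and 2 of CD8 T cells passed with limma. At an unadjusted p below 0.05 these numbers were 2, 1, 0 and 0, and with the block 3, 0, 1 and 0. Of all genes 17.8% passed at that unadjusted p, and with the block 6.01% were lower and 5.95% higher. Their part in the results on Zbtb genes was not tested. RMA values are relative, and signals of different probe sets are not on a common scale, so each gene is compared only with itself.

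HDM was compared with PBS by limma across all 22180 genes, with Benjamini-Hochberg adjustment and a threshold of 0.05. Zbtb10, Zbtb16, Zbtb21 and Zbtb39 were lower in HDM and 0 of the 37 genes were higher, while 33 did not pass. The called share of the members was 10.8%, against 3.95% of all genes, and it was 10.8% against 1.56% for lower calls and 0 against 2.39% for higher calls. At an unadjusted p below 0.05, 6 members were lower and 4 higher, 10 of 37 in all, against 17.8% of all genes. The median log2 difference of the members was −0.07 and that of all genes −0.0063. Of the 37 differences 23 were negative (62.2%, against 51.6% of all genes). These counts describe the family, which was proposed with results of these arrays known.

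All 3 HDM values lay below all 3 PBS values for 7 members (18.9%, against 11.8% of all genes): the 4 called genes, Zbtb20, Zbtb43 and Zbtb25. They lay above for 5 members (13.5%, against 10.8%): Zbtb7b, Zbtb38, Zbtb45, Zbtb42 and Zbtb7a. With 3 arrays against 3, an exact two-sided permutation test of a single gene cannot give a p below 0.1. The remaining 25 genes overlapped between the groups.

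**Figure D1:**
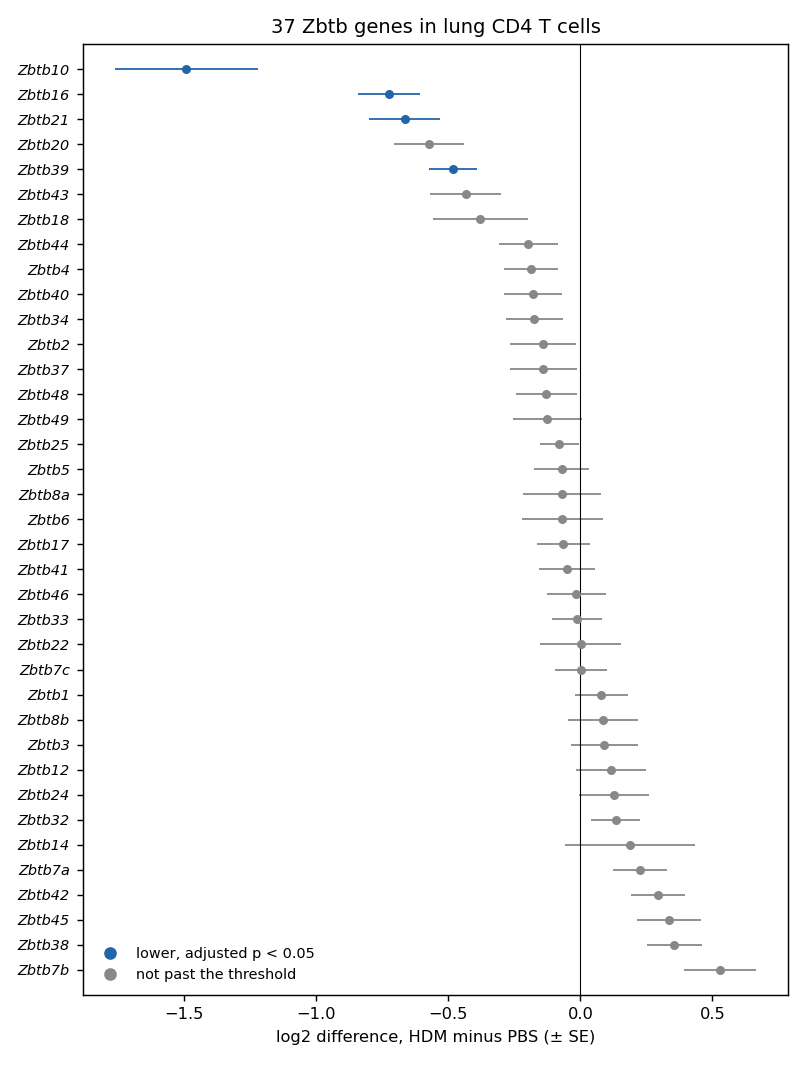
Log2 difference of HDM minus PBS for each of the 37 Zbtb genes, as points with the standard error from limma (3 arrays a group); blue marks genes lower at an adjusted p below 0.05. Differences run from −1.49 for Zbtb10 to 0.53 for Zbtb7b, and only negative ones passed.

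The HDM and PBS arrays numbered 1 and 3 deviated together from their group means (r = 0.43 and 0.53 across genes). Those numbered 2 did so weakly (r = 0.17), and HDM replicate 2 correlated more with PBS replicate 1 (r = 0.25). As an alternative, limma was therefore also run with the replicate number as a block. With the block 7 members were lower (18.9%, against 6.01% of all genes) and 1 was higher (2.70%, against 5.95%). The added lower calls were Zbtb20, Zbtb43 and Zbtb18, and the higher call was Zbtb7b. The count of called members was 0 without PBS replicate 1, HDM replicate 1 or HDM replicate 2, 1 (Zbtb16) without PBS replicate 2 or PBS replicate 3, and 7 without HDM replicate 3. When all 33960 probe sets were tested and adjusted together, an alternative added after seeing the data, Zbtb10 and Zbtb16 passed and Zbtb21 and Zbtb39 did not.

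Zbtb10 encodes a repressor that binds GC-rich promoter elements and is known for holding down genes of Sp transcription factors. Its log2 signal was 9.74, 9.95 and 9.75 in PBS replicates 1, 2 and 3 and 8.08, 7.86 and 9.03 in the HDM replicates. The PBS arrays lay close together, and 2 HDM arrays lay far below them with the third between. Zbtb10 was 2.81-fold lower in HDM (log2 difference −1.49 ± 0.27 SE, n = 3 per group, limma adjusted p = 0.0264; 95% interval −2.12 to −0.87). It was the only member with a change of at least 2-fold, which 260 of all genes reached, and only 2 called genes had a larger decrease. The standard deviation was 0.12 among PBS arrays and 0.62 among HDM arrays. Its difference was −1.66, −2.09 and −0.72 between the arrays numbered 1, 2 and 3. The call was lost without any 1 array other than HDM replicate 3 (adjusted p between 0.0556 and 0.128) and was kept without that one (−1.84, adjusted p = 0.000403). The gene lies on chromosome 3 from 9250567 to 9285333 (GRCm38.p6).

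Zbtb16 encodes PLZF, the factor of natural killer T cells and other innate-like lymphocytes. Its signal was 7.78, 7.58 and 7.82 in the PBS arrays and 6.94, 6.89 and 7.17 in the HDM arrays. Every HDM value lay below every PBS value, and the spread within each group was small (SD 0.13 in PBS and 0.15 in HDM). The log2 difference of −0.72 ± 0.12 SE is a 1.65-fold decrease in HDM (adjusted p = 0.0167; 95% interval −0.99 to −0.46). The same-numbered differences were −0.84, −0.68 and −0.65. Leaving out PBS replicate 1, HDM replicate 1 or HDM replicate 2 raised the adjusted p to between 0.0737 and 0.0826, and the call was kept without any 1 of the other arrays. Zbtb16 spans 48651797 to 48836225 on chromosome 9.

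Genes of innate-like T and natural killer T cells, a list written from general knowledge, moved in both directions. Of 18 genes 15 were measured, of which 2 fell, 2 rose and 11 did not pass, with a median log2 difference of −0.02. Klrd1, a lectin-like receptor subunit, fell by 1.21 and Slamf6 by 0.42. Il18r1, an interleukin 18 receptor chain, rose by 0.43 and Slamf1 by 0.39. The 4 calls depended on single arrays: Klrd1 and Il18r1 lost theirs without any 1 array other than HDM replicate 3, Slamf6 without any other than PBS replicate 3, and Slamf1 without any 1 array (adjusted p of up to 0.184). When replicate number was a block, 3 of the 15 rose and 3 fell. The added decrease was the list's largest difference, that of Il12rb2, an interleukin 12 receptor chain, at 8.55, 8.83 and 10.89 in PBS and 7.21, 7.10 and 9.44 in HDM (−1.50 ± 0.76, adjusted p = 0.364, 0.000396 with the block). Both arrays numbered 3 read highest for it, and the groups overlapped. The added increase was that of Il23r (0.71 ± 0.22, adjusted p = 0.131, 0.0326 with the block), and its HDM values all lay above the PBS values. Klrb1c, which encodes the NK1.1 antigen, differed by −0.12 (SE 0.09, adjusted p = 0.553). The mean signal of the 15 genes was 8.33 to 8.79 in PBS and 8.19 to 8.75 in HDM, and whether such cells were fewer or held less Zbtb16 RNA per cell cannot be told apart in sorted bulk RNA. The invariant receptor of natural killer T cells is not read by these genes, and their part in the Zbtb16 result was not tested.

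Zbtb21 encodes a BTB zinc finger repressor that can pair with the product of Zbtb14. Its signal was 10.59, 10.40 and 10.31 in PBS and 9.62, 9.64 and 10.04 in HDM, so HDM replicate 3 came within 0.27 of PBS replicate 3. Zbtb21 fell by 0.66 (SE 0.14, adjusted p = 0.0386), a 1.59-fold change. It lost the call without any 1 array other than HDM replicate 3 (adjusted p between 0.0519 and 0.159), and in the test over all probe sets (0.0639).

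Zbtb39, a member whose function is little described, changed less but with little spread. Its signal was 8.37, 8.28 and 8.30 in PBS and 7.81, 7.76 and 7.93 in HDM. Its SD was 0.046 in PBS and 0.086 in HDM, and it fell by 0.48 (SE 0.09, adjusted p = 0.0316), 1.40-fold. The same arrays decided the call (adjusted p between 0.0589 and 0.142 without 1 array other than HDM replicate 3), and it was 0.052 over all probe sets. In all 4 called genes HDM replicate 3 was the HDM array nearest to the PBS mean.

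**Figure D2:**
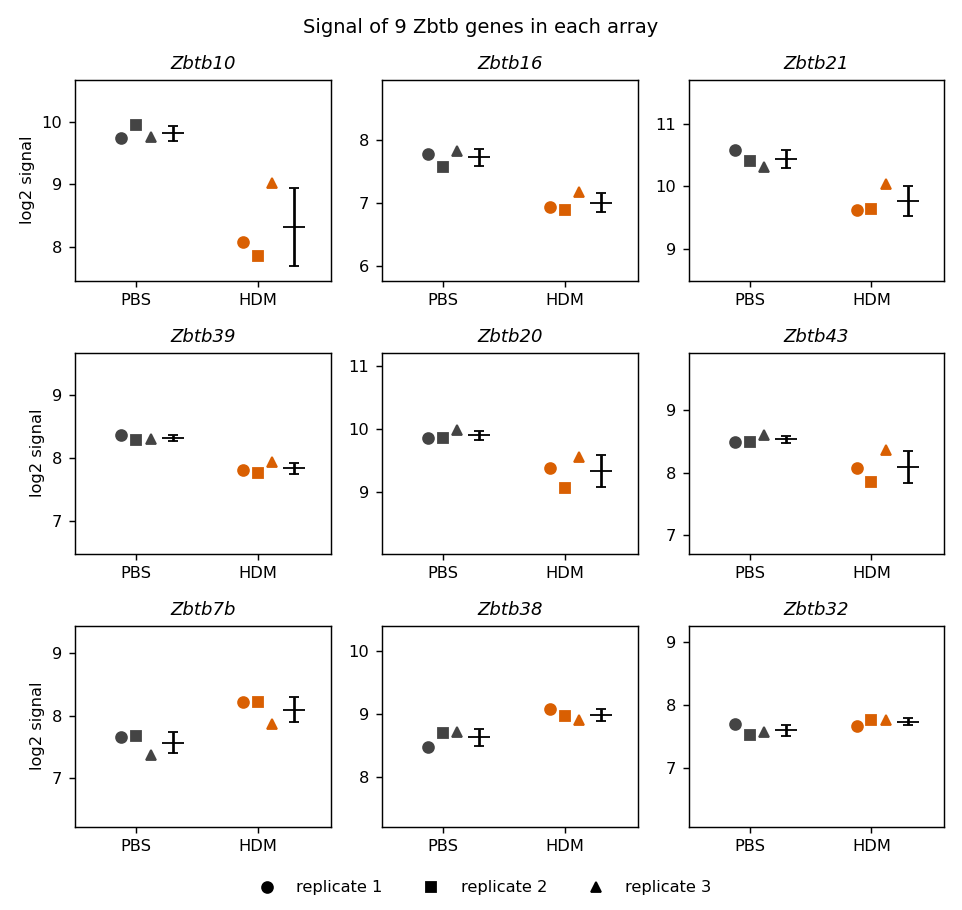
Log2 signal of 9 Zbtb genes in each of the 6 arrays (grey PBS, orange HDM; the marker shape gives the replicate number), with the mean and SD of each group beside them; every panel spans the same log2 range. The HDM arrays of Zbtb10 spread from 7.86 to 9.03, while those of Zbtb39 stayed between 7.76 and 7.93.

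The stretches before the annotated starts of the lowered genes Zbtb21 and Zbtb39 are shown because they are the called members found in the RefSeq promoter table, and that of Zbtb7b because it had the largest higher value. They hold the 250 bases upstream of the start, 5′ to 3′ on the gene's strand, in build GRCm38.p6, at chr16:97962623-97962872 (minus strand), chr10:127739280-127739529 (plus strand) and chr3:89393379-89393628 (minus strand). Capitals mark matches on either strand to GGGCGG (the GC box of Sp and Klf factors), TGTGGT (Runx factors), CACGTG (E-box) or TGACGTCA (cyclic AMP response element), none of which overlap in these windows.
Zbtb21: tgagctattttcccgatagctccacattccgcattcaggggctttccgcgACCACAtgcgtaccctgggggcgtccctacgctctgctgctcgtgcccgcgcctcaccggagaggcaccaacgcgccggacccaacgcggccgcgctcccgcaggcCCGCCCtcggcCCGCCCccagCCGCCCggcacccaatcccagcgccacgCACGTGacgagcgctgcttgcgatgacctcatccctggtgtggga
Zbtb39: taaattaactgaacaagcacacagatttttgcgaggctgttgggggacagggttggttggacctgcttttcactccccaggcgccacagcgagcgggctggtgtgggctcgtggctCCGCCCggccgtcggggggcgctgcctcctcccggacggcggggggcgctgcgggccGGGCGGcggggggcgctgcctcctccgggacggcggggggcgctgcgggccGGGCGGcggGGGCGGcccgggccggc
Zbtb7b: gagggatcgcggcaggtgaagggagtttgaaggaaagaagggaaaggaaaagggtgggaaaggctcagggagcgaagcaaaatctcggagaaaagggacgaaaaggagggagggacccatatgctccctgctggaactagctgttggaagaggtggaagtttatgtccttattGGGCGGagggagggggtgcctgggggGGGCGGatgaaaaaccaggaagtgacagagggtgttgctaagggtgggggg
The Zbtb21 window held 3 GC boxes, 1 Runx match and 1 E-box that starts 45 bases before the start. The Zbtb39 window held 4 GC boxes and 4 copies of the run CGGGGGGCGC. The Zbtb7b window held 2 GC boxes, and a second annotated start of Zbtb7b, at chr3:89387672-89387921, had 1 GC box and 1 Runx match. The 45 windows of the 32 measured members in the table held a median of 19 CpG pairs, against 6 over all 32851 windows, and a median GC share of 62.4% against 52.4%. GC boxes were found in 26 of the 45 (32.7% of all windows), Runx matches in 8 (14.05%), E-boxes in 4 (6.02%) and the cyclic AMP element in 0 (1.55%). Such matches describe the letters and not binding. Measured members with no window were Zbtb7c, Zbtb10, Zbtb16, Zbtb40 and Zbtb48.

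Zbtb20 and Zbtb43 were lower in every HDM array without passing. Zbtb20, a repressor with roles in plasma cells, liver and brain, read 9.86, 9.86 and 9.99 in PBS and 9.38, 9.06 and 9.55 in HDM (−0.57 ± 0.13, adjusted p = 0.0567). With the replicate block its adjusted p was 0.0088, and it also passed when the dimmest 25% of genes were left out (0.0443). The other fits it passed left out genes under the median signal (0.0334), HDM replicate 3 (0.0168) or both arrays numbered 3 (0.0106), or used array weights (0.0186). It lies on chromosome 16 from 42875689 to 43634392, and a further probe set annotated to both Zbtb20 and the microRNA gene Mir568 differed by −0.76 (adjusted p = 0.142 over all probe sets). Zbtb43 read 8.49, 8.49 and 8.60 in PBS and 8.07, 7.85 and 8.36 in HDM (−0.43 ± 0.14, adjusted p = 0.135, 0.0316 with the block). It also passed with array weights (adjusted p = 0.0428), without HDM replicate 3 (0.0261) and without both arrays numbered 3 (0.0189). In both genes HDM replicate 2 was the lowest array and HDM replicate 3 the highest of its group. Zbtb20 is also known in B and plasma cells, and the mean signal of their 11 measured genes was 7.48 to 7.86 in PBS and 7.58 to 8.51 in HDM. None of the 11 passed, and with the block Jchain (1.41) and Prdm1 (0.65) rose and Xbp1 fell by 0.29. The part of such cells in the Zbtb20 values was not tested.

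Zbtb7b, the gene of ThPOK, had the largest positive difference of the family. Its signal was 7.66, 7.67 and 7.37 in PBS and 8.22, 8.21 and 7.86 in HDM, and both arrays numbered 3 were the lowest of their group. The groups did not overlap, and the difference of 0.53 (SE 0.14; 95% interval 0.21 to 0.85) did not pass (adjusted p = 0.0823). Between same-numbered arrays it was 0.56, 0.54 and 0.49, and with the replicate block it passed (adjusted p = 0.00786). It also passed without HDM replicate 3 (0.65, adjusted p = 0.0245) and in no other fit that left out 1 array. With array weights (adjusted p = 0.029) and without both arrays numbered 3 (0.0108) it passed as well. Zbtb7a, whose product LRF acts beside ThPOK in CD4 cells, read 7.82, 7.77 and 7.80 in PBS and 8.07, 8.14 and 7.86 in HDM (0.23 ± 0.10, adjusted p = 0.306). The related Zbtb7c differed by 0.0035 (SE 0.10, adjusted p = 0.991).

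Zbtb32, whose product PLZP was described as a repressor of GATA and limits T cell responses, showed no detectable change. Its signal was 7.70, 7.52 and 7.58 in PBS and 7.67, 7.76 and 7.76 in HDM, with overlap between the groups. The difference was 0.13 (SE 0.09, adjusted p = 0.533), and its 95% interval ran from −0.08 to 0.35. In the same arrays 7 of 10 measured genes of type 2 cytokines and their regulators rose and 0 fell, with a median of 1.02 against −0.0063 over all genes. The largest were Il13 (3.35), Il5 (2.19), Il4 (1.62) and Maf, a factor for Il4 and Il10 (1.57). Gata3, which encodes the GATA factor of Th2 cells, rose by 1.02 (adjusted p = 0.00722). The count fell from 7 to 4 without HDM replicate 2, PBS replicate 1 or PBS replicate 3. Without 1 array other than HDM replicate 3, Il4 and Nfatc2 did not pass (adjusted p of at most 0.179 and 0.155), and Irf4 did not pass without HDM replicate 2, PBS replicate 1 or PBS replicate 3.

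**Figure D3:**
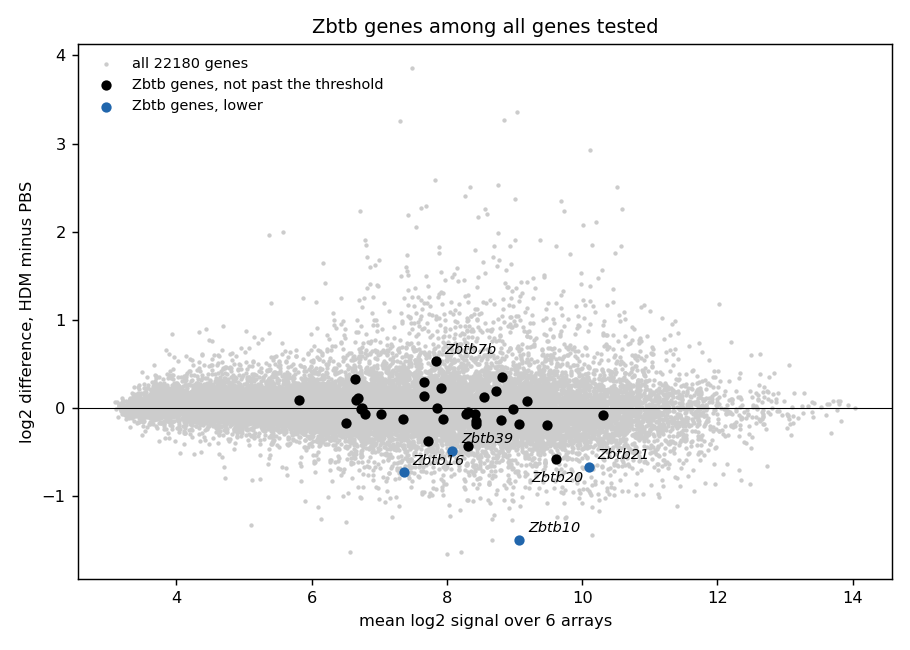
Mean log2 signal over the 6 arrays against the log2 difference of HDM minus PBS for all 22180 genes (light grey) and the 37 Zbtb genes (black, or blue where lower at an adjusted p below 0.05). Zbtb10 lies near the lower edge of all genes, and no Zbtb gene lies among the strongly raised ones.

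The 3 other members above all PBS arrays had small differences. Zbtb38, which encodes a protein that binds methylated DNA, read 8.48, 8.70 and 8.72 in PBS and 9.09, 8.97 and 8.91 in HDM (0.36 ± 0.11, adjusted p = 0.121). Further probe sets annotated to both Zbtb38 and E030011O05Rik differed by 0.61 and 1.05 and did not pass (adjusted p of 0.200 and 0.152 over all probe sets). Zbtb45 read 6.57, 6.44 and 6.44 in PBS and 7.06, 6.69 and 6.70 in HDM (0.33 ± 0.12, adjusted p = 0.194). Zbtb42 read 7.38, 7.52 and 7.64 in PBS and 7.76, 7.78 and 7.87 in HDM (0.29 ± 0.10, adjusted p = 0.172). None of the 3 passed with the block (adjusted p of 0.0633, 0.0671 and 0.0684), and Zbtb38 passed only without both arrays numbered 3 (0.44, adjusted p = 0.04).

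Close relatives within the family did not all lie on the same side of 0. Zbtb18 encodes RP58, a repressor of brain and muscle development, and Zbtb42 encodes its nearest relative. Zbtb18 read 7.999, 8.057 and 7.69 in PBS and 7.80, 7.64 and 7.17 in HDM (−0.38 ± 0.18, adjusted p = 0.324, 0.0449 with the block), while Zbtb42 was higher in every HDM array. Zbtb18 overlapped between the groups because PBS replicate 3 read lower than HDM replicate 1. The difference between the changes of these 2 genes was not tested.

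Among members that bind methylated DNA, Zbtb38 stood beside Zbtb4 and Zbtb33. Zbtb4 read 9.19, 9.15 and 9.16 in PBS and 8.93, 9.15 and 8.86 in HDM (−0.19 ± 0.10, adjusted p = 0.407), with HDM replicate 2 at the level of the PBS arrays. Zbtb33, the gene of Kaiso, differed by −0.01 (SE 0.10, adjusted p = 0.971). Zbtb24, which is needed to keep DNA methylation at centromeric repeats, differed by 0.13 (SE 0.13, adjusted p = 0.699).

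The other named members changed little. Zbtb44 read 9.66, 9.67 and 9.40 in PBS and 9.46, 9.44 and 9.23 in HDM (−0.20 ± 0.11, adjusted p = 0.427). Zbtb40 read 8.67, 8.54 and 8.37 in PBS and 8.39, 8.40 and 8.24 in HDM (−0.18 ± 0.11, adjusted p = 0.461). In both genes each HDM array lay below the PBS array of the same number, and the arrays numbered 3 were the lowest of their groups. Zbtb34 read 6.52, 6.78 and 6.49 in PBS and 6.50, 6.41 and 6.37 in HDM (−0.17 ± 0.11, adjusted p = 0.467). Zbtb2, a repressor in the p53 pathway, read 8.52, 8.57 and 8.43 in PBS and 8.57, 8.38 and 8.14 in HDM (−0.14 ± 0.13, adjusted p = 0.637).

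Zbtb14, a binder of GC-rich promoters, was the member with several single-symbol probe sets. The brightest read 8.91, 8.78 and 8.21 in PBS and 9.07, 9.06 and 8.33 in HDM (0.19 ± 0.25, adjusted p = 0.773), with both arrays numbered 3 far below the others. The other 2 probe sets differed by 0.018 and −0.23, so the 3 do not share a direction. In the third, both arrays numbered 3 were the highest, at 7.84 in PBS and 7.89 in HDM.

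The 18 remaining members had differences between −0.14 and 0.13 and adjusted p of at least 0.642. Those named here, like Zbtb7c, Zbtb24 and Zbtb33 above, were picked for their known roles or positions after their values were seen. They include Zbtb1, which T cell development requires (0.08 ± 0.10), Zbtb17, which encodes the Myc partner Miz1 (−0.07 ± 0.10), and Zbtb48, which encodes the telomere protein TZAP (−0.13 ± 0.12). Zbtb46, a marker of classical dendritic cells, read 6.62, 6.74 and 6.83 in PBS and 6.66, 6.602 and 6.89 in HDM (−0.01 ± 0.11, adjusted p = 0.969). Of 11 measured dendritic cell genes 1 rose (Itgax, 1.06) and 1 fell (Ccr7, −0.66), both of which T cells can express, and the mean signal of the 11 genes was 8.47 to 8.86 in PBS and 8.69 to 9.15 in HDM. With the block 4 rose, adding the MHC class II genes H2-Aa, H2-Ab1 and H2-Eb1 (0.59, 0.71 and 0.63), and 1 fell. Ccr7 lost its call without any 1 array other than HDM replicate 3, and Itgax without any 1 PBS array or HDM replicate 2 (highest adjusted p 0.157 and 0.132). Zbtb25, which encodes a repressor of NFAT activity in T cells, was lower in every HDM array by a small margin (10.38, 10.35 and 10.30 in PBS and 10.27, 10.28 and 10.24 in HDM). Its difference of −0.08 was about the size of its limma SE of 0.07 (adjusted p = 0.656).

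Zbtb25 and Zbtb1 overlap at their ends on chromosome 12 (76348900 to 76370214 and 76370051 to 76396955), and their differences were −0.08 and 0.08. Zbtb34 and Zbtb43 are neighbours on chromosome 2 (33406108 to 33431324 and 33450287 to 33468581), with differences of −0.17 and −0.43. Zbtb8a and Zbtb8b, neighbours on chromosome 4, differed by −0.07 and 0.09. In these 3 pairs no member passed in the main limma comparison of HDM with PBS. Zbtb43 passed with the block, with array weights, without HDM replicate 3 and without both arrays numbered 3.

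**Figure D4:**
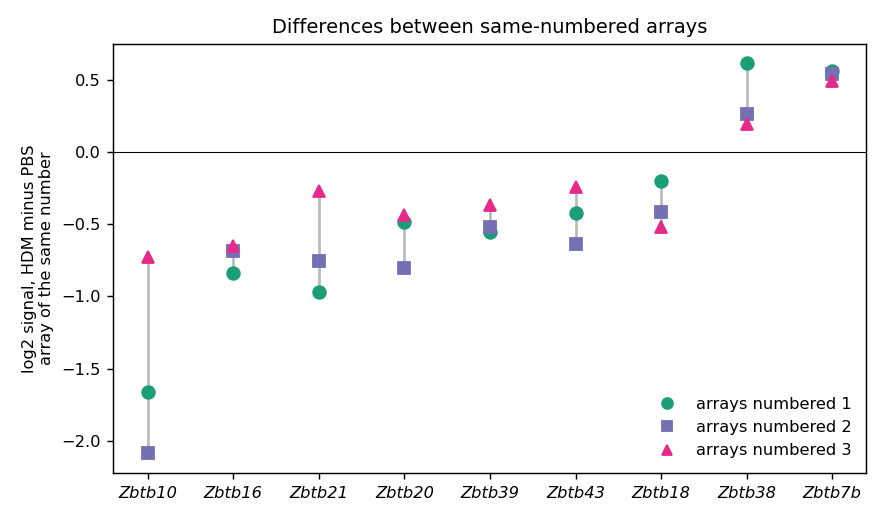
Log2 signal of each HDM array minus the PBS array of the same number, for 9 Zbtb genes; grey lines join the lowest and highest of the 3 differences. For Zbtb10 they run from −2.09 to −0.72, while for Zbtb7b they lie between 0.49 and 0.56.

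Genes that work with the family were read from lists written from general knowledge, with earlier results of these data known. For these and the marker lists above, the shares of all genes called were 1.56% lower and 2.39% higher. With the block they were 6.01% and 5.95%. Of 8 BTB zinc finger genes without a Zbtb number, 0 passed with limma, 1 at an unadjusted p below 0.05 and 1 with the block. That 1 was Bcl6, the factor of T follicular helper cells (0.49 ± 0.19, adjusted p = 0.236, 0.042 with the block), and its HDM values all lay above the PBS values. The next largest difference was that of Patz1, a partner of Runx factors in CD8 control (−0.19 ± 0.15, adjusted p = 0.58). The list's median was −0.0018.

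Of 17 measured corepressor and chromatin genes, 0 passed with limma, 2 at an unadjusted p below 0.05 and 3 with the block (1 higher, 2 lower), and their median was −0.0080. The largest differences were those of Tbl1x, a subunit of a corepressor complex (−0.31 ± 0.09, adjusted p = 0.109, 0.0401 with the block), and Cul3, a ubiquitin ligase scaffold that binds BTB domains (−0.27 ± 0.08, adjusted p = 0.134, 0.0238 with the block).

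Of 18 measured factors of CD4 lineage choice and early T cell identity, 4 fell, 1 rose and 13 did not pass, with a median of −0.01. Bach2, which restrains effector differentiation, fell by 0.97, Satb1, a chromatin organiser of thymocytes, by 0.89 and Lef1, a factor of naive T cells, by 0.85, and Gata3 was the gene that rose. With the block 6 fell and 3 rose. The block added Myb (−0.91) and Id3 (−0.43) to the genes that fell, and Id2 (0.74) and Gfi1 (0.47) to those that rose. The count of 5 called genes was 3 without HDM replicate 1, PBS replicate 1 or PBS replicate 2, and 9 without HDM replicate 3. Foxo1, the fourth gene that fell, did not pass without PBS replicate 1, PBS replicate 2, HDM replicate 1 or HDM replicate 2 (highest adjusted p 0.0951). Satb1 did not pass in the fits that left out PBS replicate 1, PBS replicate 2 or HDM replicate 1 (highest adjusted p 0.0546). Of 10 genes that ThPOK controls or that mark the CD4 or CD8 lineage, 1 rose and 1 fell, and with the block 3 rose and 1 fell. Cish, a suppressor of cytokine signalling, rose by 1.15 and Prf1, the pore-forming protein perforin, fell by 0.82. The list's largest difference was that of Gzmb, which encodes granzyme B (1.30 ± 0.37, adjusted p = 0.112, 0.00181 with the block), and its groups overlapped. Gzmb and Cd40lg (0.83, adjusted p = 0.188, 0.00422 with the block) were the increases added by the block. For Prf1 the adjusted p lay between 0.0694 and 0.133 in the 5 fits that left out an array but kept HDM replicate 3. Runx3, the factor that opposes ThPOK in the CD8 lineage, differed by 0.11 (SE 0.14, adjusted p = 0.76).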

How the data were processed

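The deposited table holds log2 signals per probe set of 6 arrays, which the authors computed with RMA, per the submitters' processing notes (no version given). RMA subtracts background, equalises array distributions by quantiles and summarises probes. A change in total RNA per cell cannot be seen. The sources used here give neither detection calls nor scan dates. Scan batches could therefore not be tested, and the number of arrays limits precision. Of 33960 probe sets, 23521 had 1 gene symbol, 1814 several and 8625 none in the platform annotation, and 22180 genes remained with the brightest probe set each. Any 2 arrays shared at most 5 identical values.

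HDM and PBS were compared in R 4.3.3 with limma 3.58.1 (lmFit, eBayes with intensity trend, two-sided, Benjamini-Hochberg over 22180 genes, threshold 0.05). Values in the text as a ± b are log2 differences with the SE of this fit. The code was also run on simulated data with independent noise for each array and SDs shuffled across genes. Such data hold no deviations shared between arrays and no trend of SD with signal. They therefore cannot tell the rate of false calls in these arrays. HDM and PBS arrays of one number deviated together (r = 0.43, 0.17 and 0.53 across genes, each above the 0.1 taken to show pairs). The labels do not say what a number stands for, so pairing rests on these values alone. HDM replicate 2 correlated more with PBS replicate 1 (r = 0.25) than with its own number. Alternatives were normalization, centring, dim-gene filters, variance models, array weights, averaged probe sets, the block, other thresholds and leaving out arrays.

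The members, gene lists and rules were chosen with earlier results of these data known. Array values are given for Zbtb10, Zbtb7b, Zbtb16, Zbtb20, Zbtb32, called members and the 12 others with the largest difference, and up to 4 called genes a list, or the 2 largest, are named. Other list members are given as counts. Those named beyond that rule, such as Foxo1, Nfatc2, Irf4, Gzmb, Cd40lg and Runx3, were picked after their values were seen. So were the markers named beside a member. Promoters are from RefSeq (GRCm38.p6).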

Additional observations from a re-analysis of the deposited data

How the results depend on the processing

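Of the 37 members, 4 were called, and this number was within 1.5 times of 4 under 8 of 19 alternatives. It was 7 with array weights, 8 with the replicate block, 8 without both arrays numbered 3, 2 over all probe sets and 0 at an adjusted p below 0.01, and from 0 to 7 without 1 array. The number called higher, 0 in the text, was 1 with array weights, 1 with the block, 1 at an adjusted p below 0.1, 2 without both arrays numbered 3, and 0 to 1 without 1 array. Over all genes, 876 were called, against 1837 with array weights, 2653 with the block, 2576 without both arrays numbered 3, 543 over all probe sets, 227 at 0.01, 1535 at 0.1, and 218 to 1567 without 1 array. Over the related lists 13 genes were called, against 24 with the block, 23 without both arrays numbered 3, 7 at 0.01, and 7 to 18 without 1 array. Among the 19 members chosen by the naming rule, only Zbtb14 changed sign, to −0.0077 with probe sets averaged and to −0.025 without PBS replicate 3, with a range of −0.025 to 0.43 without 1 array. Of the others named, Zbtb7c, Zbtb8a, Zbtb8b, Zbtb33 and Zbtb46, all near 0, also changed sign without 1 array. The block took the call from no member. Normalization, centring, eBayes without trend, robust eBayes and averaged probe sets left the same 4 genes called. The cause of these shifts was not tested.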
